A study of Caenorhabditis elegans with 4 samples.

Results

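The right arm of chromosome II carried 969 of the 14662 LIN-61 peaks that the authors listed for the whole series, or 6.61% of them. LIN-61 binding was mapped by chromatin immunoprecipitation followed by sequencing (ChIP-seq) with an affinity-purified rabbit polyclonal antibody, LIN-61 HM4077, in N2, the wild-type laboratory strain of Caenorhabditis elegans, at the third larval stage (L3). The larvae were grown at 20 °C and were a mixture of males and hermaphrodites. The series holds 2 ChIP libraries, which are replicates 1 and 2 here, and 2 libraries of input DNA, not analysed here. All libraries share the same strain, genotype and stage, and the labels do not say whether the replicates came from separate cultures, so their spread may be technical.

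Chromosome II was taken as 15279345 bp long in WS220 coordinates, which is the last base of any peak on it, and was cut into 3 sections of equal length. The right arm is the section from position 10186231 to 15279345, and a peak belongs to it when its midpoint lies there. Position alone chose the peaks. The same window held 583 of the 9958 peaks of replicate 1 and 897 of the 13486 peaks of replicate 2. It held 44.5% of the chromosome II peaks of the whole-series list, 40.6% of those in replicate 1 and 43.7% of those in replicate 2. In the authors' list the last peak outside the window, from 10174382 to 10175000, scored 195.7, and the first inside, from 10197036 to 10197232, scored 2.43.

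LIN-61 is a protein built of MBT repeats, folds that bind methylated lysines on histone tails, and it is known to bind histone H3 methylated at lysine 9. It belongs to the synMuv B group of genes, which repress gene expression through chromatin and keep vulval and germline programmes off in cells where they do not belong. The outer parts of worm autosomes are rich in repeated sequence and in methylation of histone H3 lysine 9, lie close to the nuclear envelope and recombine often in meiosis, whereas the centres are dense in conserved genes. The meiotic pairing centre of chromosome II lies at its left end, so the right arm is the end without it.

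Peaks were about 3 times as dense on the right arm as in the centre of the chromosome. Density was 114 and 176 peaks per Mb on the right arm in replicates 1 and 2, against 37.1 and 55.4 peaks per Mb in the centre. The right arm was denser in both replicates, and its sparser replicate lay above the denser replicate of the centre. The fold of right arm over centre was 3.13 ± 0.068 (SD, n = 2). Peaks covered 5.40% and 9.80% of the right arm, against 1.21% and 2.34% of the centre, which is a 4.31 ± 0.19-fold difference (SD, n = 2). With 2 replicates the exact permutation test by sign flips (two-sided) cannot give a p under 0.5, and it gave p = 0.5 for density, width and score of the right arm against the centre, so no such contrast could be decided by a test.

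Against the left arm the density gave no clear order. It was 114 and 176 peaks per Mb on the right arm in replicates 1 and 2 and 131 and 171 peaks per Mb on the left arm. The fold of right over left was 0.877 in replicate 1 and 1.03 in replicate 2, and the whole-series list gave 1.08. By the exact permutation test over sign flips this contrast had p = 1.0. Among the 12 chromosome arms the right arm of II ranked 8 by density in replicate 1 and 6 in replicate 2 and in the whole-series list. The arms of X, counted among the 12, were the sparsest in both replicates. Its neighbours in that order were the left arm of II above and the right arm of IV below (71.7 peaks per Mb) in replicate 1, and the right arm of I above (226 peaks per Mb) and the left arm of II below in replicate 2.

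The place where the peaks became dense depended on the method. A two-level fit to peak numbers in 50-kb bins, from the start of the centre to the right end, placed the step at position 11929346 in replicate 1 and at 11829346 in replicate 2. The mean was 11.88 ± 0.071 Mb (SD, n = 2), which is 1.69 Mb to the right of the section boundary and 3.35 and 3.45 Mb from the end of the chromosome. Density was 147 and 222 peaks per Mb to the right of the step, against 40.7 and 61.3 peaks per Mb from the start of the centre up to it, a ratio of 3.63 and 3.62. The part of the arm before the step held 89 of the 583 peaks in replicate 1 and 131 of the 897 in replicate 2. Its density there was 51.1 and 79.7 peaks per Mb, against 37.1 and 55.4 peaks per Mb in the centre section. The step fitted to the whole-series list lay at 11679346, further to the left. This fit imposes a single step. By another rule, the first 500-kb window to pass the midpoint between the mean densities of centre and arm was sought. It began at 10.06 Mb in replicate 1 and 9.46 Mb in replicate 2, both to the left of the section boundary. A step was also fitted by least squares to the covered share of the same bins, so that both the measure and the fitting rule differed. It lay at 11.88 Mb in replicate 2 and at 15.18 Mb in replicate 1, where the last 100 kb of the chromosome begins. Without that 100 kb replicate 1 gave 11.93 Mb.

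**Figure D1:**
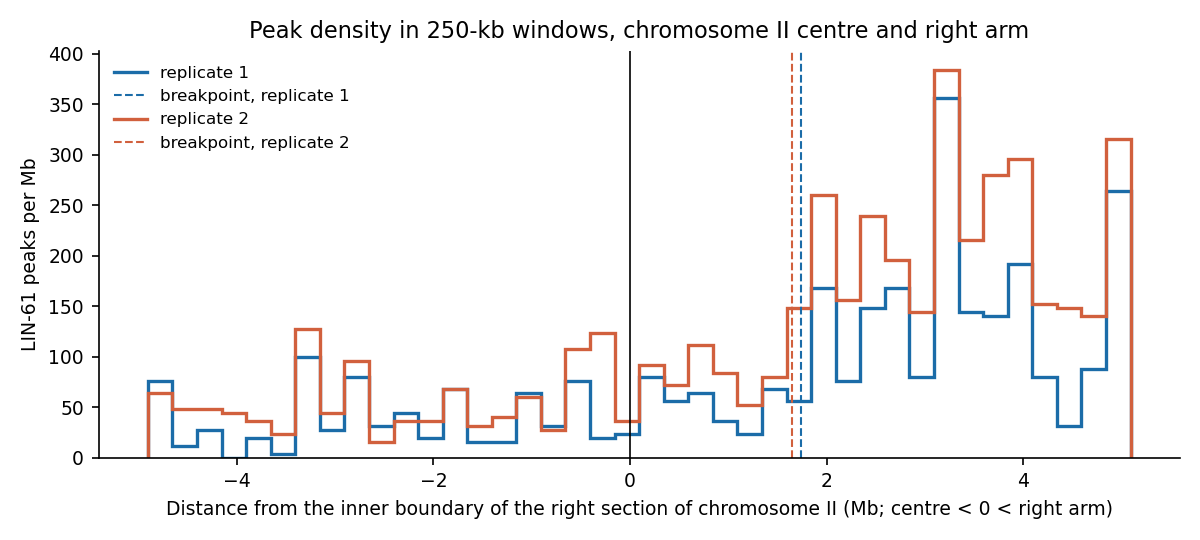
LIN-61 peaks per Mb in 250-kb windows (y axis) against the distance in Mb from the inner boundary of the right section (x axis; the centre is below 0), for replicates 1 and 2. Dashed lines mark the fitted step of each replicate, which lies 1.74 Mb inside the section in replicate 1 and 1.64 Mb in replicate 2; the highest window of the arm reaches 356 and 384 peaks per Mb.

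The plot of density along the chromosome shows an uneven rise. In 500-kb windows counted from the right end, density stayed at 75 ± 9.9, 74.0 ± 34 and 56.0 ± 14 peaks per Mb from 10279346 to 11779345 (SD, n = 2 for each). It was 158 ± 65 peaks per Mb in the next window, from 11779346 to 12279345. The following windows had 155 ± 61 and 147 ± 33 peaks per Mb, and the window from 13279346 to 13779345 had the highest mean, 275 ± 35. Density was then 227 ± 86, 103 ± 66 and 202 ± 37 peaks per Mb in the last 3 windows. Beyond the step the windows thus went up and down, and the window from 14279346 to 14779345 had a lower mean than any other window to the right of 11779345. Left of the boundary the 250-kb window from 9529346 to 9779345 held 19 peaks of replicate 1 and 27 of replicate 2, and the next, from 9779346 to 10029345, held 5 and 31, so the density did not climb evenly through the boundary.

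Single 250-kb windows of the arm differed by up to 9.74-fold in mean density. The densest of the 20 full windows ran from 13279346 to 13529345 and held 89 peaks of replicate 1 and 96 of replicate 2, or 370.0 ± 20 peaks per Mb (SD, n = 2). Peaks covered 16.9% and 26.7% of it. The sparsest ran from 11279346 to 11529345, with 6 and 13 peaks, or 38.0 ± 20 peaks per Mb. The densest and the sparsest window were picked by the mean over these same replicates, so the difference between them is no independent support. The replicates ordered the windows alike, with a Spearman's rho of 0.846 between their counts over the 20 windows. The windows share libraries and are no replicates of each other.

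The last 250 kb was the second densest window, with 264 and 316 peaks per Mb in replicates 1 and 2. Between the dense region around 14.2 Mb and this end window lay a dip of 3 windows, from 14279346 to 15029345, with 66.7 and 147 peaks per Mb. In replicate 1 that was below the replicate's mean for the whole arm, 114, and in replicate 2 below 176. Single windows closer to the step were about as sparse. The window from 12279346 to 12529345 had 76.0 and 156 peaks per Mb, and that from 13029346 to 13279345 had 80.0 and 144. By ratio the replicates differed most inside the dip. The window from 14529346 to 14779345 held 8 peaks in replicate 1 and 37 in replicate 2, a 4.62-fold difference, whereas the median ratio of replicate 2 to replicate 1 over the 20 windows was 1.61 and the lowest was 1.08. Of the 37 peaks of replicate 2 in that window, 6 overlapped a peak of replicate 1, and the median score of the 37 stood at percentile 32.8 of the list.

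When the arm was divided into 3 equal parts, the inner part stood apart from the other 2 in density. The inner part had 51.8 and 81.9 peaks per Mb in replicates 1 and 2, the middle part 159 and 222, and the outer part 133 and 224. The covered share was 2.04% and 4.33% in the inner part, 7.30% and 12.6% in the middle part, and 6.86% and 12.5% in the outer part. The order of the middle and outer parts was not stable by number: the middle part was denser in replicate 1 and the outer part slightly denser in replicate 2. Median width in replicate 1 was 268.5, 298.5 and 287.0 bp from the inner to the outer part, and in replicate 2 it was 260.0, 341.0 and 315.0 bp. The inner part had the narrowest median peaks in both replicates. Median score did not follow density in both replicates, since the inner part stood highest in replicate 1 (percentile 56.5 of its list, against 51.3 in each of the other parts) and lowest in replicate 2 (40.7, against 48.7 in each of the other parts).

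The same fit placed the step of the left arm of II at 3.10 and 3.55 Mb from the left end in replicates 1 and 2, so the peak-rich ends of the chromosome were of similar length, 3.35 and 3.45 Mb on the right. On the autosomes the distance of the step from the end ran from 3.10 Mb on the left arm of II to 4.90 Mb on the right arm of IV. A length near that of the right arm was not particular to II. The step lay at 3.45 Mb in both replicates on the left arm of IV and at 3.30 and 3.35 Mb on V right. It lay further in on the right arm of I (4.05 and 4.35 Mb) and the left arm of V (4.85 and 4.70 Mb). The ratio of density outside to inside the step was 3.63 and 3.62 on the right arm of II and 3.91 and 3.44 on the left arm of II.

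**Figure D2:**
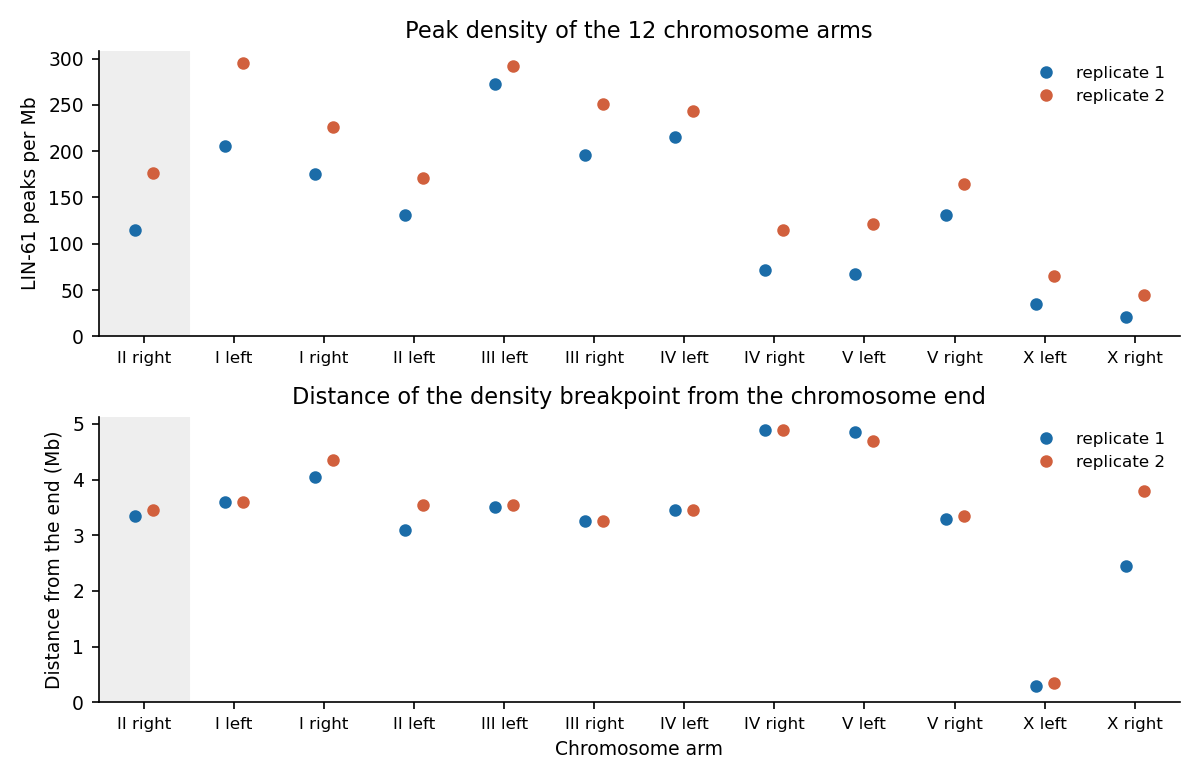
Peak density (upper panel, peaks per Mb) and distance of the fitted density step from the chromosome end (lower panel, Mb) for the 12 chromosome arms in replicates 1 and 2, with the right arm of II shaded. The right arm of II has 114 and 176 peaks per Mb, rank 8 and 6 of the 12 arms, where the arms of X are the sparsest. Its step at 3.35 and 3.45 Mb is close to that of the left arm of II and of other autosome arms.

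Peaks of the right arm were about as narrow as those of the whole lists, with a few broad ones that held much of the covered sequence. Median widths were 285 and 320 bp on the right arm in replicates 1 and 2, where they were 278 and 313 bp over all peaks. In the centre they were 245 and 290 bp. The difference of right arm minus centre was 35.0 ± 7.1 bp (SD, n = 2) and had the same sign in both replicates. Among the higher-scoring 50% of each list it was 90 bp. Left arm medians were 317 and 336.5 bp, so the difference of right minus left was -32 and -16.5 bp. The narrowest peak measured 146 bp in each of the 3 lists. The widest 10% of the right arm peaks, 59 in replicate 1 and 90 in replicate 2, held 37.1% and 40.3% of the bases in peaks.

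Peaks under 250 bp made up 42.2% of the right arm peaks in replicate 1 and 35.9% in replicate 2, but 16.5% and 12.3% of the bases. Their share of peaks was 37.6% and 33.5% on the left arm and 51.9% and 41.1% in the centre. Peaks of 2000 bp or more numbered 14 of 583 in replicate 1 and 37 of 897 in replicate 2, or 2.40% (95% exact binomial interval 1.32 to 4.0) and 4.12% (2.92 to 5.64). Over all peaks of those lists the shares were 1.51% and 3.33%. The whole-series list had 49 such peaks on the right arm, or 5.06% (3.76 to 6.63), close to the 4.68% over the whole list, and these 49 held 31.2% of the bases in right arm peaks. On the left arm of II peaks of this width were 0.752% (0.245 to 1.75) of the peaks in replicate 1 and 2.98% (1.96 to 4.34) in replicate 2. In the whole-series list they were 4.47% (3.21 to 6.04) of the left arm peaks. The right arm thus had the narrower median over all peaks, but not under every alternative. In the higher-scoring 50% it was 474 bp against 466 bp on the left arm in replicate 1. In replicate 2 it was 504 against 542 bp, and in the whole-series list 593 against 590 bp. After merging peaks less than 500 bp apart it was again the narrower in each list. The share of peaks of 2000 bp or more was larger on the right arm in both replicates, with overlapping intervals. Peaks of 1000 bp or more but under 2000 bp were rarer there, at 7.38% and 7.58% against 8.57% and 8.37% on the left arm. The intervals reflect counting error alone and take each peak as independent of its neighbours, which it is not.

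**Figure D3:**
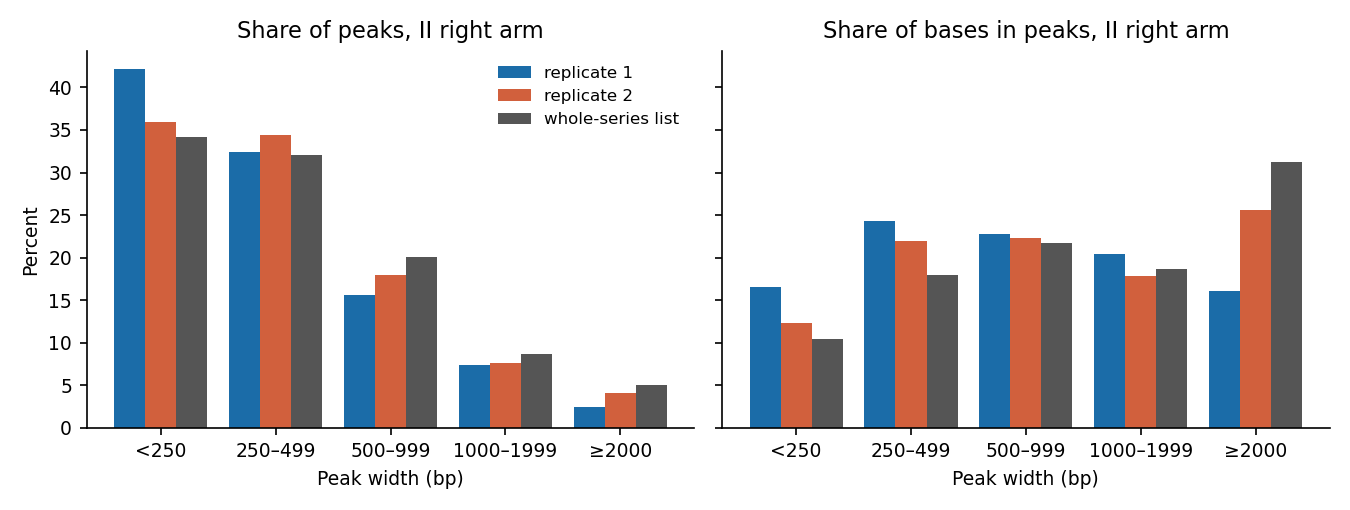
Share of right arm peaks (left panel, percent) and share of the bases in those peaks (right panel, percent) by width class in bp, for both replicates and the authors' whole-series list. Peaks under 250 bp are 42.2% and 35.9% of the replicate peaks, while the peaks of 2000 bp or more hold 16.1% and 25.6% of the bases.

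The widest peak of the arm was the same region in all 3 lists. In the whole-series list it ran from 15204793 to 15220043, 15251 bp, ending 59.3 kb from the chromosome end. Replicate 1 split it into 6 peaks, the longest of 6273 bp, which together covered 96.9% of it. Replicate 2 split it into 4, the longest of 12959 bp, which covered 95.8%. The region was therefore covered almost throughout in both replicates and differed in how the caller divided it. Its score was 82.6 in the authors' list, at percentile 96.8, and the best score among its replicate peaks stood at percentile 97.9 in replicate 1 and 95.9 in replicate 2.

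The second widest peak, from 13284182 to 13298240, spanned 14059 bp and lay in the densest window. It overlapped 9 peaks of replicate 1 covering 83.0% of it and 6 of replicate 2 covering 93.5%. The third, from 12793620 to 12800362, spanned 6743 bp, and the remaining 7 of the 10 widest were between 5057 and 5991 bp. All 10 overlapped peaks of both replicates, and 2 of them met a reciprocal overlap of 50% in both. Of the 10, 5 lay in the outer part of the arm, 4 in the middle part and 1 in the inner part. The one in the inner part, from 10547311 to 10553259, was 5949 bp wide. It was covered to 85.0% in replicate 1 and 94.5% in replicate 2. To its right, from 10595103 on, lay the longest region of the arm without a peak in either replicate.

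Peaks on the right arm lay close to each other. Another peak of the same list lay within 5 kb for 87.7% of them in replicate 1 and 91.0% in replicate 2, against 82.0% and 75.5% in the centre and 92.5% and 91.9% on the left arm. The median gap to the nearest peak was 390 and 380 bp on the right arm, against 467 and 645 bp in the centre. Runs of peaks less than 5 kb apart are called dense stretches here. Those with 5 or more peaks held 392 of the 583 peaks in replicate 1 (38 stretches) and 625 of the 897 in replicate 2 (62 stretches), which is 67.2% and 69.7%. In contrast 72 peaks in replicate 1 and 81 in replicate 2 stood alone. These stretch shares and lone peaks were not set beside other sections, so whether they are particular to this arm was not tested.

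The replicates shared 19 dense stretches of at least 10 kb on the right arm, against 1 in the centre and 24 on the left arm. Of the 19, 1 lay in the inner part of the arm, 10 in the middle part and 8 in the outer part. The longest ran for 44.4 kb from 15189544 to 15233973, and its right edge lay 45.4 kb from the end of the chromosome. It held 33 peaks of replicate 1 and 29 of replicate 2, which covered 73.0% and 69.3% of it, and the widest peak of the arm lay within it. This was the most fully covered of the 5 longest shared stretches in both replicates.

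The second stretch ran for 42.7 kb from 13279163 to 13321910, with 24 peaks in each replicate covering 40.5% and 55.3%. The third ran for 29.0 kb from 14222407 to 14251441, with 16 peaks in each replicate covering 36.3% in both. The next in length spanned 23.4 kb (13441275 to 13464664) and 22.8 kb (13885972 to 13908770). The longest shared stretch of the left arm of II was 50.6 kb and that of the centre 11.3 kb. In the whole-series list the longest run was another one, 49.6 kb from 14018309 to 14067902. Replicate 2 had nearly the same run (14018304 to 14066422, 27 peaks), whereas replicate 1 had 18 peaks over it with wider gaps, and the part shared by both was 21.4 kb.

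**Figure D4:**
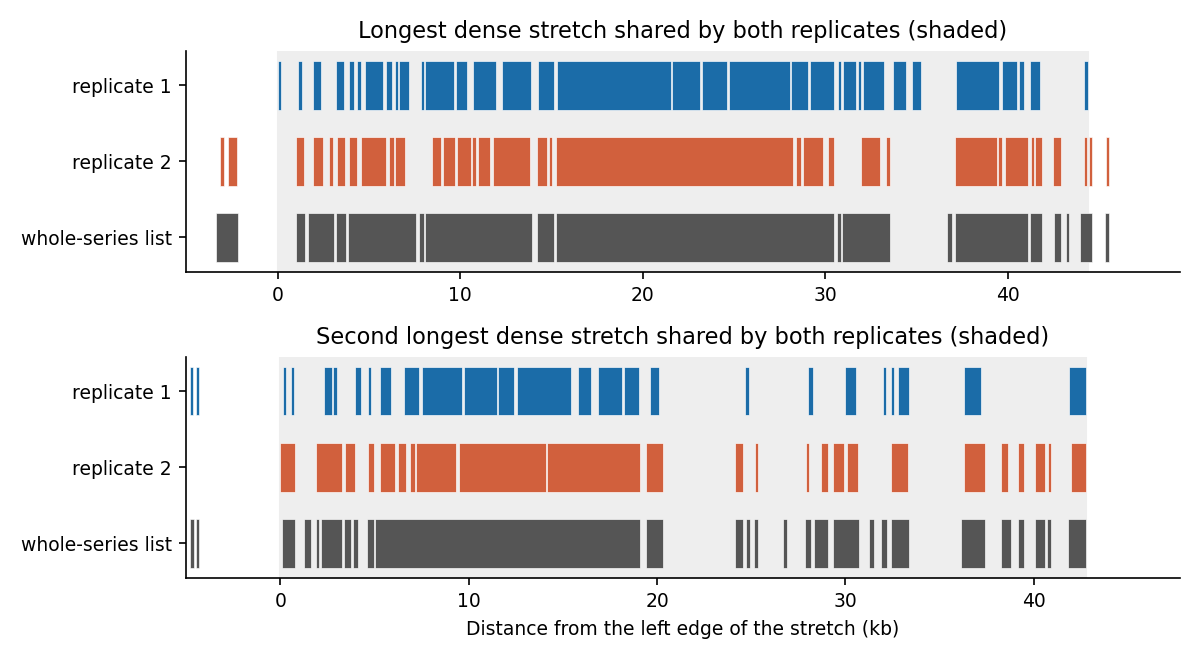
Peaks of the 3 lists (bars, one row per list) along the 2 longest dense stretches shared by both replicates, against the distance in kb from the left edge of the stretch; shading marks the shared stretch of 44.4 kb in the upper panel and 42.7 kb in the lower panel. In the upper panel a block of 15251 bp in the whole-series list is split into 6 peaks in replicate 1 and 4 in replicate 2.

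Long regions without peaks lay mostly in the inner part of the arm. The longest region free of peaks in both replicates ran for 225 kb, from 10595103 to 10820110. It held a single peak of the whole-series list, at 10658794 to 10658961 with a score of 10.7, which lay 63.7 kb from its nearest neighbour and was the most isolated peak of that list on the arm. The next regions were much shorter. They spanned 77.0 kb (14610771 to 14687770) and 73.6 kb (14415267 to 14488880), both in the dip before the end, and 70.7 kb (11753440 to 11824181) and 63.5 kb (11442476 to 11505983), both in the inner part. The step of replicate 2, at 11829346, followed directly on the 70.7-kb region. Isolated peaks were about as few as on the left arm: 18 of 583 peaks in replicate 1 and 7 of 897 in replicate 2 had no other peak of their list within 20 kb. The share with such a neighbour was 96.9% and 99.2% on the right arm in replicates 1 and 2. It was 97.4% and 99.2% on the left arm, and 86.8% and 87.6% in the centre.

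Peaks were dense close to the right end. The last 100 kb held 44 peaks in replicate 1 and 43 in replicate 2, or 440.0 and 430.0 peaks per Mb, and peaks covered 36.2% and 35.8% of it. In these counts the replicates were nearly equal, although replicate 2 had more peaks on the arm as a whole. That 100 kb held 13.1% of all bases in right arm peaks in replicate 1 and 7.17% in replicate 2. The last peak of replicate 1, 176 bp wide, ended at 15279345, the base that sets the chromosome length used here, and the last peak of replicate 2 ended 3865 bp before it.

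Scores of right arm peaks were higher than those of the centre and lower than those of the left arm. The median score stood at percentile 51.3 of the list in replicate 1 and 48.7 in replicate 2, against 40.2 and 35.7 in the centre. The difference was 12 ± 1.3 percentile points (SD, n = 2). In the whole-series list it was 3.71 points, with percentile 47.1 on the right arm and 43.4 in the centre. Against the left arm, at percentiles 65.7 and 58.4, the difference of right minus left was -14.4 and -9.73 points. Of the 969 right arm peaks 22.4% (95% interval 19.8 to 25.2) lay in the highest-scoring 25% of the whole-series list, against 36.9% (33.7 to 40.1) of the 895 left arm peaks and 12.7% (9.23 to 16.9) of the 315 peaks in the centre.

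The 10 right arm peaks that scored highest in the whole-series list and overlapped peaks of both replicates scored from 111 to 160.0, at percentiles 98.4 to 99.7. No right arm peak that failed to overlap both replicates scored above 51.7. The whole-series list may be built from the same reads, so this overlap is not independent support. Of the 10, 8 lay in the outer part of the arm and 2 in the middle part. The highest, from 14241396 to 14244470, scored 160.0 in the authors' list, and its best peak scored 145.7 in replicate 1 and 144.8 in replicate 2. It was also the highest-scoring region of the arm in each replicate.

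The second, from 14234116 to 14237091, scored 153.7 and was again second in both replicates, at 107.0 and 129.6. The peaks ranked 5 (14237727 to 14238919, 137.0) and 10 (14230449 to 14231535, 110.9) lay beside them, so that 4 of the 10 fell within the third dense stretch. The third peak, from 13315292 to 13316577, scored 147.3 and lay in the second dense stretch. The fourth, from 14992736 to 14994578, scored 145.1, and its best peak stood at percentile 89.4 in replicate 1 and 99.3 in replicate 2. The sixth to ninth lay at 15137462 to 15142887 (score 116.9), 14603671 to 14609283 (114.8), 13189657 to 13195314 (112.6) and 14835589 to 14838183 (111.9). The one at 14603671 was a single peak in each replicate, of which 97.0% and 92.3% was covered, and lay in the window with the highest ratio of replicate 2 to replicate 1 peaks. Under the stricter rule, which asks each peak to cover 50% of the other, 6 of the 10 were still found in both lists.

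Fewer right arm peaks were found in both replicates than left arm peaks of the same chromosome. Overlap means at least 1 shared base. The whole-series list may be built from the same reads as the replicate lists, so its overlap with them is a description and not independent support. Of the 969 peaks of the whole-series list, 320 overlapped peaks of both replicates, or 33.0% (95% interval 30.1 to 36.1), where 37.2% did over all 14662 peaks. Under a reciprocal overlap of 50% the right arm share was 13.3%. That rule was not run on other sections or on all peaks, so whether the low share is particular to this arm was not tested. By at least 1 shared base the left arm share was 431 of 895, or 48.2% (44.8 to 51.5). In the centre it was 96 of 315, or 30.5% (25.4 to 35.9). A further 44.0% of the right arm peaks overlapped replicate 2 alone, 8.36% replicate 1 alone and 14.7% neither, where the shares over all peaks were 39.1%, 9.46% and 14.3%. By the share in both replicates the right arm ranked 8 among the 12 arms.

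Counting from the replicate lists, 438 of the 583 right arm peaks of replicate 1 were found in replicate 2, or 75.1% (71.4 to 78.6), where 74.7% were over all peaks. In the other direction 383 of the 897 replicate 2 peaks were found in replicate 1, or 42.7% (39.4 to 46.0), against 47.1% over all peaks. The left arm had 81.2% and 55.8%. Among replicate 2 peaks, those found in replicate 1 had a median width of 498 bp and those not found 247 bp. Of the bases in right arm peaks, 211 kb were common to both replicates, which is 76.8% of those in replicate 1 and 42.3% of those in replicate 2. Scores of matched right arm peaks were ranked moderately alike, with a Spearman's rho of 0.489 over the 438 peaks of replicate 1 and 0.496 over the 383 of replicate 2, against 0.606 and 0.694 on the left arm. Matched peaks share libraries and neighbourhoods, so no p is given.

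Overlap with both replicates went with score and width on the arm, which may follow from shared reads and was not tested. In the lowest-scoring 25% of the whole-series list 9 of 258 right arm peaks, or 3.49% (1.61 to 6.52), overlapped both replicates. Among all peaks outside the right arm this lowest level gave 2.06% (1.61 to 2.59). In the highest-scoring 25% 175 of 217 right arm peaks, or 80.6% (74.8 to 85.7), overlapped both. Among the highest-scoring 25% the share was 93.3% (90.1 to 95.8) on the left arm. It was 87.3% (86.2 to 88.4) among all peaks outside the right arm, so the right arm share was below both. The intervals take each peak as independent of its neighbours, which it is not, so they cannot decide this difference. Scores were not matched within the 25%. The centre of II had a share like that of the right arm, 32 of 40 or 80.0% (64.4 to 90.9). At the 3 lower score levels the intervals of the right arm overlapped those of the left arm. By width, 10 of 331 right arm peaks under 250 bp, or 3.02% (1.46 to 5.49), were found in both replicates, against 44 of 49, or 89.8% (77.8 to 96.6), of those of 2000 bp or more. A wide peak can satisfy this overlap rule more readily than a narrow one. The shares by width were not set beside other peaks, so whether they are particular to this arm was not tested. No peak of 1000 bp or more lacked a replicate 2 peak. The 142 right arm peaks found in neither replicate had a median width of 181.5 bp and a median score of 3.52, and the 320 found in both had 724 bp and 18.6. Among all peaks outside the right arm these medians were similar, 187 bp and 3.72 for neither and 712 bp and 20.9 for both.

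**Figure D5:**
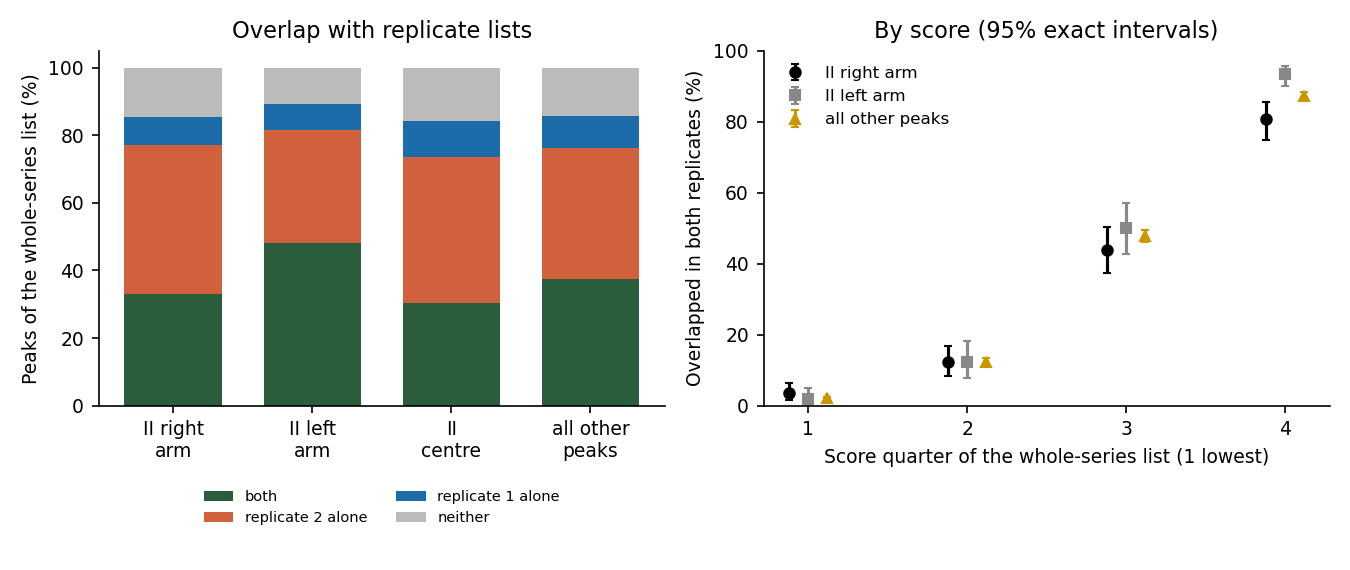
Left panel, share of whole-series peaks (percent) overlapping both replicates, replicate 2 alone, replicate 1 alone or neither, for the right arm of II, the left arm of II, the centre of II and all other peaks. Right panel, share overlapping both replicates by score level of the whole-series list (4 groups of equal size) with 95% exact binomial intervals; in the highest-scoring 25% the right arm has 80.6%, the left arm 93.3% and all other peaks 87.3%.

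Within the arm the share found in both replicates was 26.8% (20.0 to 34.4) in the inner part, 34.0% (29.5 to 38.6) in the middle part and 34.6% (29.8 to 39.6) in the outer part, and these intervals overlapped. In the inner part 71.6% of the replicate 1 peaks were found in replicate 2, and 32.4% of the replicate 2 peaks in replicate 1.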

How the data were processed

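ChIP-seq peak lists were analysed for 2 LIN-61 ChIP libraries, grouped by their titles. Per the submitters' processing notes, reads were aligned with BWA to ce10. Peaks were called with MACS on WormBase WS220, per the file headers. Not given in the sources used here: tool versions, the calling threshold, filters and whether the input served as control. The deposited values are 1-based starts and ends and a score for each peak. What the score measures is not stated, so it serves here only for ranks inside each list. The making of the whole-series list is not described, and its values carry no SD. Read depth is unknown, and peak number can depend on it. A gene annotation or genome of this build was not used here, so peaks are given by position alone and no sequence is shown.

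Python 3.11.15 with pandas 2.3.3, NumPy 2.4.6 and SciPy 1.17.1 was used. Density is peaks per Mb by midpoint. Percentiles are ranks of scores within a list, with ties averaged. The step in peak number is the Poisson maximum-likelihood breakpoint of 2 constant densities. The step in covered bases is the least-squares breakpoint of 2 constant levels. The Poisson step, overlap, covered bases and merging were tested on simulated data. There peaks were placed at random, without the clustering seen in these lists. The least-squares step and the 500-kb window rule were not tested in this way. Intervals are exact (Clopper-Pearson) at 95%. The named regions are the 10 highest-scoring supported peaks, the 10 widest peaks, the 5 longest shared stretches, the 5 longest gaps, the densest and sparsest window, and the first and last peak. The members, lists and tests were chosen with earlier results of these data known. The 3 equal parts of the arm, score levels, last 100 kb, the dip and the window with the highest ratio of replicate counts were chosen after their values were seen. The alternatives tried took the higher-scoring 50% of peaks, merging of peaks less than 500 bp apart, other bins, boundaries, distances and overlap rules, covered bases, the whole-series list and each replicate left out.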

Additional observations from a re-analysis of the deposited data

How the results depend on the processing

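The right arm stayed above the centre in density under every alternative run. The fold of 3.13 became 4.21 in the higher-scoring 50% of each list, 2.91 with peaks less than 500 bp apart merged, 4.31 by covered bases, and, in alternatives added after seeing the data, 3.00 by peak number and 3.95 by covered bases without the last 100 kb of the arm. It ran from 3.08 to 3.18 with a replicate left out. The fold over the left arm, 0.953, had no stable direction. It was 0.777 in the higher-scoring 50%, and it turned to 1.01 after merging and 1.08 in the whole-series list, and it ran from 0.877 to 1.03 with a replicate left out. The width difference from the centre, 35.0 bp, became 70.5 bp after merging and 90 bp in the higher-scoring 50%, and ran from 30.0 to 40.0 bp with a replicate left out. The score difference of 12 percentile points became 3.71 in the whole-series list, 7.28 after merging and 9.58 with arms as the outer 25%, and ran from 11.1 to 13 with a replicate left out. The share of right arm peaks found in both replicates, 33.0%, became 13.3% under a reciprocal overlap of 50%, 22.5% under the midpoint rule and 41.2% after merging. These alternatives of the share were run on the right arm alone, so whether such changes are particular to it was not tested.

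The step at 11.88 Mb ran from 11.83 to 11.93 Mb with a replicate left out and lay at 11.68 Mb in the whole-series list. The first 500-kb window to pass the midpoint between the mean densities of centre and arm began at 10.06 Mb in replicate 1 and 9.46 Mb in replicate 2. The mean was 9.76 Mb, and both starts lay to the left of the section boundary, unlike the step. By covered bases, fitted by least squares, the mean was 13.53 Mb, because replicate 1 stepped at 15.18 Mb, 100 kb from the end, and replicate 2 at 11.88 Mb. Without the last 100 kb they gave 11.93 and 11.88 Mb. The parts of measure and fitting rule in this shift were not tested. The share of peaks with another within 5 kb, 89.3%, was 67.0% at 1 kb, 98.1% at 20 kb, 80.0% in the higher-scoring 50% and 79.9% after merging, and ran from 87.7% to 91.0% with a replicate left out. Where no cause is given above, the cause was not tested. Read depth is unknown, and its part in the larger peak number of replicate 2 was not tested. No paired analysis was possible because the groups that share replicate numbers, ChIP and input, cannot be set against each other with ChIP peak lists alone; the sign-flip test compares sections within each ChIP library. The planned description of peaks by gene and sequence was not run.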
